A study of Mus musculus with 16 samples.

Results

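The transcriptome of haematopoietic stem cells (HSCs) from mice that received the vehicle alone was described from 4 RNA-seq libraries, vehicle 1 to vehicle 4, which were all the vehicle libraries of a series of 16. They were chosen by their treatment label, and no value below comes from a drug-treated library. The series compared 4 groups, namely vehicle, the CDK4 and CDK6 inhibitor palbociclib, rapamycin and both drugs, and its title names the size of stem cells in aging as its subject. All 4 vehicle libraries came from C57BL/6J mice injected into the peritoneum every 48 h for 85 days with 20% DMSO and 40% PEG 400 in PBS, so these are solvent-treated and not untreated animals. The labels give neither age nor sex, and whether the libraries are from different mice is not stated, so the spread between libraries may in part be technical. Each library was made from 10000 cells labelled as HSCs in G0/1, flushed from the long bones, depleted of lineage-positive cells and sorted with antibodies against CD150, CD48, Sca-1 and CD117. With 1 group there is nothing to test, and all values are descriptions of these 4 libraries.

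HSCs renew themselves and give rise to all blood lineages. In adult marrow most of them rest outside the cell cycle, with a low rate of protein synthesis, and they are held in that state by thrombopoietin, stem cell factor and TGF-beta signals and by transcription factors such as Meis1, Hlf, Gata2 and Mecom. A resting cell still needs the housekeeping machinery, namely ribosomes, mitochondria, proteasomes and a cytoskeleton. The genes of differentiated cells, such as neutrophil granule proteins, haemoglobins and immunoglobulins, are known from later stages of the lineages and serve as markers of those cells.

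Levels are in TPM (transcript abundance scaled to a fixed total), which correct for the length of a gene and have the same sum in each library. Spread is given as the standard deviation (SD) over the 4 libraries of log2(TPM + 1), so that an SD of 1 corresponds to typical deviations of about 2-fold. Libraries held 10194976, 12115808, 15328830 and 10146176 counts for vehicle 1 to 4, and 18850, 18840, 16704 and 19428 genes with at least 1 count. Vehicle 3 thus had the most counts and the fewest genes. The limit that a count of 0 allows, 3 counts, corresponded to 0.196 to 0.296 CPM, a count scaled to the total of its library. Pearson correlations of log2(TPM + 1) between libraries over genes with a mean of at least 10 TPM ran from 0.727 to 0.903, lowest between vehicle 1 and vehicle 4, and from 0.821 to 0.916 without immunoglobulin genes. The median protein-coding gene lay 0.20 above its 4-library mean in vehicle 1, 0.06 below in vehicle 2, 0.12 above in vehicle 3 and 0.23 below in vehicle 4 on the log2 scale. Between-library differences of single genes are best read against those shifts.

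The label was first compared with marker genes, in vehicle 1 to 4 order throughout. Kit, which encodes the CD117 receptor for stem cell factor, was at 118, 58.9, 33.5 and 34.99 TPM. Ly6a, which encodes Sca-1, was at 359.6, 747, 142 and 1268 TPM. Slamf1, which encodes CD150, was at 28.9, 12.2, 12.4 and 11.6 TPM. These 3 markers, which HSCs carry, were present in every library, with Kit and Slamf1 highest in vehicle 1 and Ly6a highest in vehicle 4. Cd48, whose product is found on progenitors and most other blood cells and is used to set HSCs apart, was at 8.24, 25.2, 9.23 and 40.1 TPM. It was thus higher in vehicle 2 and vehicle 4 than in the other libraries. Procr, a receptor of protein C that marks HSCs, was at 153, 138, 95.5 and 34.3 TPM. Hlf, a transcription factor of HSCs, was at 43.4, 26.3, 24.3 and 14.6 TPM and Mecom, another, at 45.2, 11.7, 18.1 and 5.88 TPM. Each of these was highest in vehicle 1 and lowest in vehicle 4.

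RNA of genes that mark other cell types was present beside them, in amounts that differed between libraries. A list of 19 late neutrophil genes, such as those for the S100A8 and S100A9 calcium-binding proteins and lactoferrin, held 2.06%, 9.74%, 4.39% and 3.68% of all TPM in vehicle 1 to 4, and 16 of the 19 were highest in vehicle 2. Early granule genes, a list of 7 that marks promyelocytes, held 0.265%, 1.3%, 1.76% and 0.184%, with vehicle 2 and vehicle 3 high. Immunoglobulin genes held 1.08%, 1.45%, 4.08% and 16% and MHC class II genes 0.179%, 0.13%, 0.184% and 2.46%, both highest in vehicle 4, where all 11 class II genes had their maximum. Of all protein-coding genes at 1 TPM or more in every library, 13.4% were highest in vehicle 2 and 10.1% in vehicle 4. Eosinophil, basophil and mast cell markers were at 0.0074%, 0.0173%, 0.112% and 0.0134%, highest in vehicle 3. Vehicle 1 had the lowest share of each of the late neutrophil, immunoglobulin and eosinophil lists. T and NK cell markers stayed at or below 0.121%, and endothelial, stromal and fat cell markers at or below 0.0173%. The source of these RNAs was not tested. In bulk RNA, fewer cells of a type and less RNA per cell cannot be told apart.

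**Figure D1:**
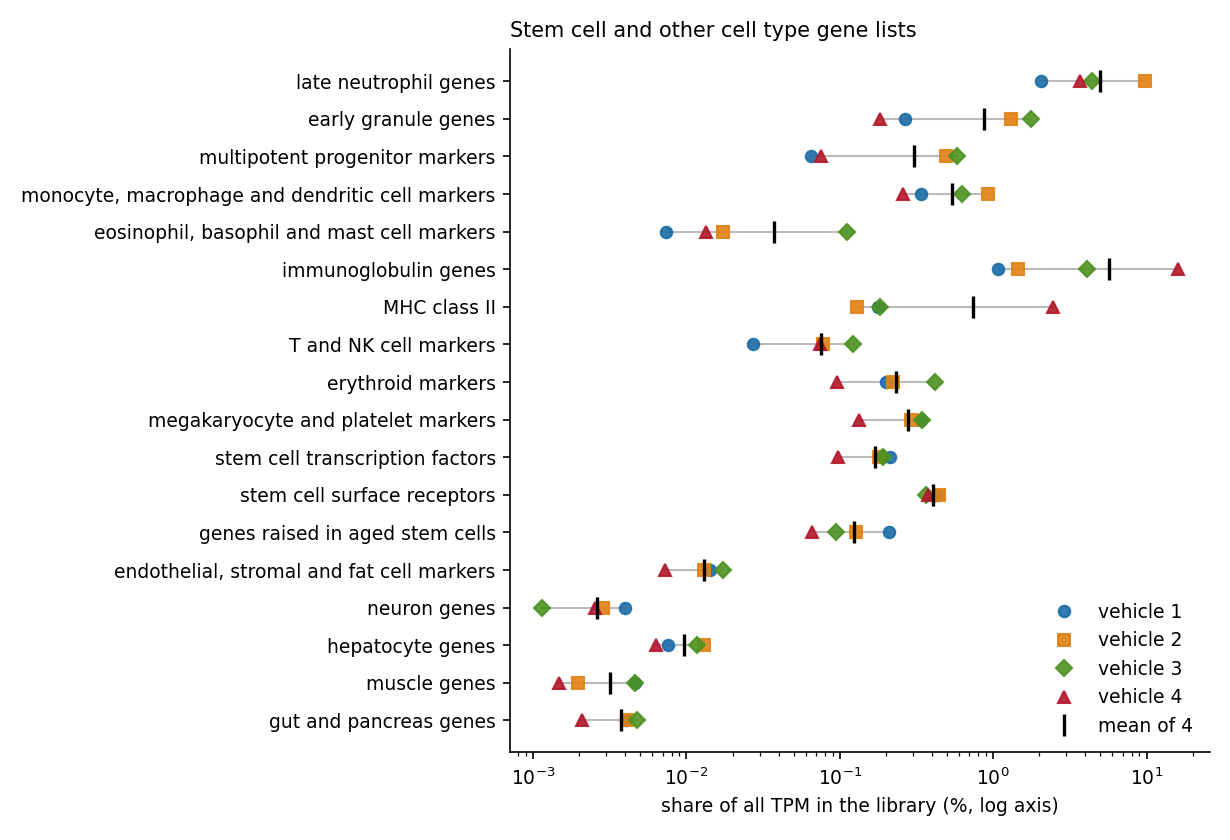
Share of all TPM (percent, log axis) held by each stem cell, blood cell and other tissue gene list in the 4 vehicle libraries, with points for libraries and a bar for their mean. Immunoglobulin genes span 1.08% to 16.0% and late neutrophil genes 2.06% to 9.74%, while the lists of stem cell transcription factors and receptors lie between 0.0975% and 0.445%.

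Promoter sequences were set beside the levels, as a feature that can be read from the DNA. RefSeq promoter entries of build GRCm38.p6 hold 250 bases before and 50 after each start. The stretches below cover 140 bases before to 10 after the start, 5′ to 3′ on the gene's strand, with each CG dinucleotide in capitals. Clp1, a kinase of tRNA splicing and mRNA 3′ end formation, and Mrgbp, a subunit of a histone acetyltransferase complex, had the smallest spread by TPM of the genes with a mean of at least 50 TPM, but ranked 798 (Mrgbp) and 868 (Clp1) of 3204 when counts were scaled by trimmed mean of M values (TMM), which centres the libraries. H2-D1, a classical MHC class I chain, was abundant and varied little by TPM, and S100a8, Ltf and Lcn2 are neutrophil granule genes that differed between libraries. Alb, the serum albumin of liver, was silent.
Clp1, chr2:84727278-84727427, minus strand: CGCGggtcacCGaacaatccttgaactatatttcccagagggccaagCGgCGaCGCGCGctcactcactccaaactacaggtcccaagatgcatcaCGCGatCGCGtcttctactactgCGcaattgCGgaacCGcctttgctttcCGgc
H2-D1, chr17:35262954-35263103, plus strand: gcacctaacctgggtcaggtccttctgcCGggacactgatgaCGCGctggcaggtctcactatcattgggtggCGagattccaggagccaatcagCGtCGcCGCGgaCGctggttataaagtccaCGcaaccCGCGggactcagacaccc
Mrgbp, chr2:180581082-180581231, plus strand: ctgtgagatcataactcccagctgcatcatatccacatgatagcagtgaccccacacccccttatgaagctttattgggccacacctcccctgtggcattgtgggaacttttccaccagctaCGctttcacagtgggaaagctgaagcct
S100a8, chr3:90668931-90669080, plus strand: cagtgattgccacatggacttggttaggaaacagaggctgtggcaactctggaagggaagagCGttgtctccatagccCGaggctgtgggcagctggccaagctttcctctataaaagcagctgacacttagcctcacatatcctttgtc
Ltf, chr9:111019152-111019301, plus strand: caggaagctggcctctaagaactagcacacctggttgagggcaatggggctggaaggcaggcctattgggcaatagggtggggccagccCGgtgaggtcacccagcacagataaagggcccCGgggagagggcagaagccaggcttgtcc
Lcn2, chr2:32387730-32387879, minus strand: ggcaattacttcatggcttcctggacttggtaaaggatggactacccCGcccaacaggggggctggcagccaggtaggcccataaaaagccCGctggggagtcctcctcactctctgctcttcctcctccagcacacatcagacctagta
Alb, chr5:90460730-90460879, plus strand: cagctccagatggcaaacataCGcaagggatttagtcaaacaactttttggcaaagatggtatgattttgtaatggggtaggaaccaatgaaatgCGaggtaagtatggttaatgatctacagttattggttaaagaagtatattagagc
Clp1 has 16 CG dinucleotides in its 150 bases and H2-D1 has 12. The stretches of S100a8, Ltf, Lcn2 and Alb have 2 each, and that of Mrgbp, which was stable by TPM, has 1 in the bases printed from its RefSeq entry.

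Classes of genes were compared over the whole entries. The share of a class is a mean over its genes, each with the share of its own entries. The share of all entries counts each entry once, so it is not a like measure. An entry was called CpG-rich if its 300 bases, 250 before and 50 after the start, had at least 55% G + C and an observed over expected CG ratio of at least 0.6. Of all 32851 entries 30.3% were CpG-rich, compared with 64.0% for the 5936 matched protein-coding genes, of 7235, with a mean of at least 10 TPM. The share was 65.5% at a mean of at least 100 TPM (1301 of 1581 genes matched) and 65.9% in the tenth of lowest spread (624 of 723 matched). It was 0% for 17 matched late neutrophil genes of 19 and for 936 matched olfactory receptor genes of 1134. A TATAAA on the gene's strand, starting 40 to 20 bases before the start, was in 1.99% of all entries, 1.07% of genes at 10 TPM or more and 23.5% of the late neutrophil genes, but in none of the 6 matched early granule genes of 7. CCGGAAG on either strand, anywhere in the entry, was in 8.86% of all entries, 25.5% of genes at 100 TPM or more, 28.6% of the tenth of lowest spread and 0% of the late neutrophil genes, and 8.33% of the early granule genes, averaged over entries per gene. CCAAT on either strand was in 37.4% of all entries and 41.5% of genes at 100 TPM or more. These matches describe letters and not bound factors.

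Genes expressed throughout were a minority of those annotated. Of 50686 genes, 10864 (21.4%) had at least 1 TPM in all 4 libraries, and 9863 of these were protein-coding, 45.2% of 21841 protein-coding genes. At 10 TPM or more in all 4 libraries there were 6079 genes, at 100 TPM or more 1221 and at 1000 TPM or more 64, 55 of them protein-coding. Without vehicle 3 and vehicle 4, the libraries with the most RNA of eosinophil and B cell markers, 12327 genes had at least 1 TPM in both others and 29066 were at 0. A further 2950 genes reached 1 TPM in 1 library alone, 1225 of them in vehicle 1, 561 in vehicle 2, 534 in vehicle 3 and 630 in vehicle 4. Among the protein-coding genes in that class only 9 reached 10 TPM, 4 in vehicle 3, led by the eosinophil peroxidase gene Epx, and 5 in vehicle 4, led by Btla, an inhibitory receptor of lymphocytes.

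Few genes held much of the RNA. The 100 genes of highest mean held 24.6%, 32.2%, 24.9% and 32.9% of TPM in vehicle 1 to 4 (28.7% ± 4.55, SD, n = 4), and 421 genes held 50% of the mean TPM, 4163 held 90% and 10604 held 99%. Of those 100 genes 24 encode cytosolic ribosomal proteins, 11 are immunoglobulin genes, 10 are granule or neutrophil genes, 5 encode actin or its partners, 5 serve antigen display, 4 are mitochondrially encoded and 3 are translation factors. The pseudogenes among them numbered 5. Without immunoglobulin genes the share of the 100 highest was 28.3%, and without vehicle 3 and vehicle 4 it was 29.6%. Only 46 of the 100 were among the 100 highest in each single library, and 72 were also among the 100 highest by share of counts, which favours long genes.

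The highest mean belonged to Igkc, the constant part of the kappa antibody chain (chr6:70726435-70726966, GRCm38), at 2492, 3585, 15033 and 42813 TPM. S100a8 (chr3:90668978-90670035) was next at 6102, 33793, 8749.7 and 12412 TPM. Its neighbour S100a9 (chr3:90692632-90695721), whose product joins that of S100a8 in the calprotectin of neutrophils and monocytes, was at 5057, 26397, 9345 and 10175 TPM. The order of these genes depended on the library, since Igkc was highest in vehicle 4 and both S100 genes in vehicle 2. Ngp, a neutrophil granule gene, was at 3648, 15147, 9566 and 4709.9 TPM, and Camp, the cathelicidin of the same granules, was at 1577, 5290.3, 5858 and 1519.9 TPM. Elane, the neutrophil elastase made by promyelocytes, was at 412, 3558, 7832 and 91.2 TPM. Granule genes thus differed even among themselves, with Elane highest in vehicle 3, lowest in vehicle 4 and Ngp highest in vehicle 2. Lyz2, the lysozyme of monocytes and neutrophils, was at 2479, 6397, 4622 and 1609 TPM. Cd74, the invariant chain of MHC class II, was at 623, 347, 612 and 13017 TPM, with all but vehicle 4 below 700 TPM.

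Leading genes outside those lineages were housekeeping genes. Ftl1, the light chain of the iron store ferritin, was at 6778, 5422, 9707 and 3720.4 TPM. Fth1, the heavy chain, was at 3121, 3521, 3479 and 3476 TPM (SD of log2 0.08). The heavy chain was thus among the most even of the abundant genes, and the light chain differed by library, highest in vehicle 3. Actb, encoding beta-actin, was at 5168, 8990.5, 1175 and 6987 TPM. Tmsb4x, encoding an actin-binding thymosin, was at 2509, 4013, 3471 and 3609.9 TPM. Only Actb was low in vehicle 3. Ubb, a polyubiquitin gene, was at 4287, 3665, 7640.5 and 2734 TPM. Ppia, the proline isomerase cyclophilin A, was at 4559.8, 4063, 5017 and 3866 TPM. Hmgn2, a nucleosome-binding protein, was at 2289, 2482, 5792 and 1522 TPM. Ubb and Hmgn2 were both highest in vehicle 3, while Ppia varied little. Gpx1, a glutathione peroxidase, was at 3041, 3457, 3291 and 2042 TPM, lowest in vehicle 4.

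Cytosolic ribosomal protein genes were the largest functional group. The 86 genes held 10.8%, 9.62%, 5.38% and 9.97% of TPM in vehicle 1 to 4, or 5.14%, 4.92%, 2.68% and 5.23% of counts, which are not corrected for length. Of the 86, 83 were at 1 TPM or more in all libraries and 78 at 100 TPM or more. Their mean share was 8.93% ± 2.41 (SD, n = 4). Rps19, of the small subunit, was at 5243, 4512, 2492 and 5433 TPM and Rps18 at 3730.3, 3367, 1643 and 3306 TPM. Rplp0, of the stalk to which elongation factors bind, was at 2991, 2565, 1671 and 2459 TPM. Vehicle 3 was the lowest library for 76 of the 86, and no other library was lowest for more than 4. For the 78 genes at 100 TPM or more the median ratio of vehicle 3 to the median of the others was 0.572, from 0.328 for Rpl37a to 1.28 for Rps27l, and 73 were lowest in vehicle 3. For all 1133 protein-coding genes at that level the median ratio was 1.17 and 21.4% were lowest in vehicle 3. The ribosomal ratio of vehicle 3 was thus below that of protein-coding genes at the same level.

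Ribosomal protein mRNAs are known to begin with a pyrimidine tract at the transcription start, through which mTOR controls their translation. For the 5 most abundant of them with a single RefSeq entry used here, the 40 bases before and 10 after the start are given below. The first run of a C and at least 5 pyrimidines, sought from 10 bases before the start, is in capitals.
Rps18, chr17:33955656-33955705, minus strand: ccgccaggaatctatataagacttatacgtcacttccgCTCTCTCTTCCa
Rps27, chr3:90213639-90213688, minus strand: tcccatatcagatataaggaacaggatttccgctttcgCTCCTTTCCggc
Rplp0, chr5:115559427-115559476, plus strand: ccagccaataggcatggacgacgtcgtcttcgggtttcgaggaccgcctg
Rpl41, chr10:128549159-128549208, minus strand: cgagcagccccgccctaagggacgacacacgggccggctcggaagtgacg
Rpsa, chr9:120127726-120127775, plus strand: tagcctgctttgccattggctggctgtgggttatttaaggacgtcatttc
Rps18 and Rps27 hold such a run, of 11 and 9 letters, that begins within 10 bases of the annotated start. The other 3 hold none within the printed bases. Over all entries 18.5% hold a run that begins there, and 19.1% of genes at 100 TPM or more. Those shares also count runs that end past the printed bases. Only 68 of the 86 ribosomal protein genes matched an entry, too few to give a share for the group.

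Mitochondrial functions were next in summed level. The 87 nuclear genes of the respiratory chain and ATP synthase held 3.8%, 3.14%, 3.9% and 2.69%, 80 of them being expressed in all libraries. Their mean share was 3.38% ± 0.573 (SD, n = 4). Atp5b, the catalytic beta subunit of ATP synthase, was at 1549.7, 1618, 1209 and 1374 TPM. Cox4i1, a subunit of cytochrome c oxidase, was at 1269, 1084, 1033 and 895 TPM. Ndufa3, a subunit of complex I, was at 1133, 854, 1439.8 and 779 TPM. None of the 80 expressed genes had an SD of 1 or more, where 7.96% of all 7848 genes with a mean of at least 10 TPM did, and 65 of the 80 were below the median spread. All 78 mitochondrial ribosomal protein genes were expressed, at a summed 0.866%, 0.717%, 1.02% and 0.588%. Vehicle 4 was lowest for 62 of the 87 and 60 of the 78, and the median protein-coding gene of that library was shifted by -0.23. Of all expressed protein-coding genes 42.4% were lowest in vehicle 4. With TMM scaling that share was 23.1%, and these lists were not counted under it. Mitochondrially encoded mRNAs, 12 of 13 expressed and 1 silent, held 0.703%, 0.669%, 0.328% and 0.577%. All 12 expressed ones were lowest in vehicle 3. Whether pseudogenes take reads of these genes, the silent one included, was not tested, so the share may be too low. The oxidase subunit mt-Co1 was at 1345, 1739, 1089 and 1175 TPM. The ATP synthase subunit mt-Atp6 was at 1848, 1682, 728 and 1423 TPM. The large mitochondrial ribosomal RNA, mt-Rnr2, was at 3777, 2641, 522 and 1713 TPM. The lowest of these values again belonged to vehicle 3. The tRNA gene mt-Ts1 was at 12125, 11462, 6262 and 6201 TPM. With 69 bases, mt-Ts1 ranked 4 by TPM and 1356 by share of counts, so its place in the order rests on the length correction.

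**Figure D2:**
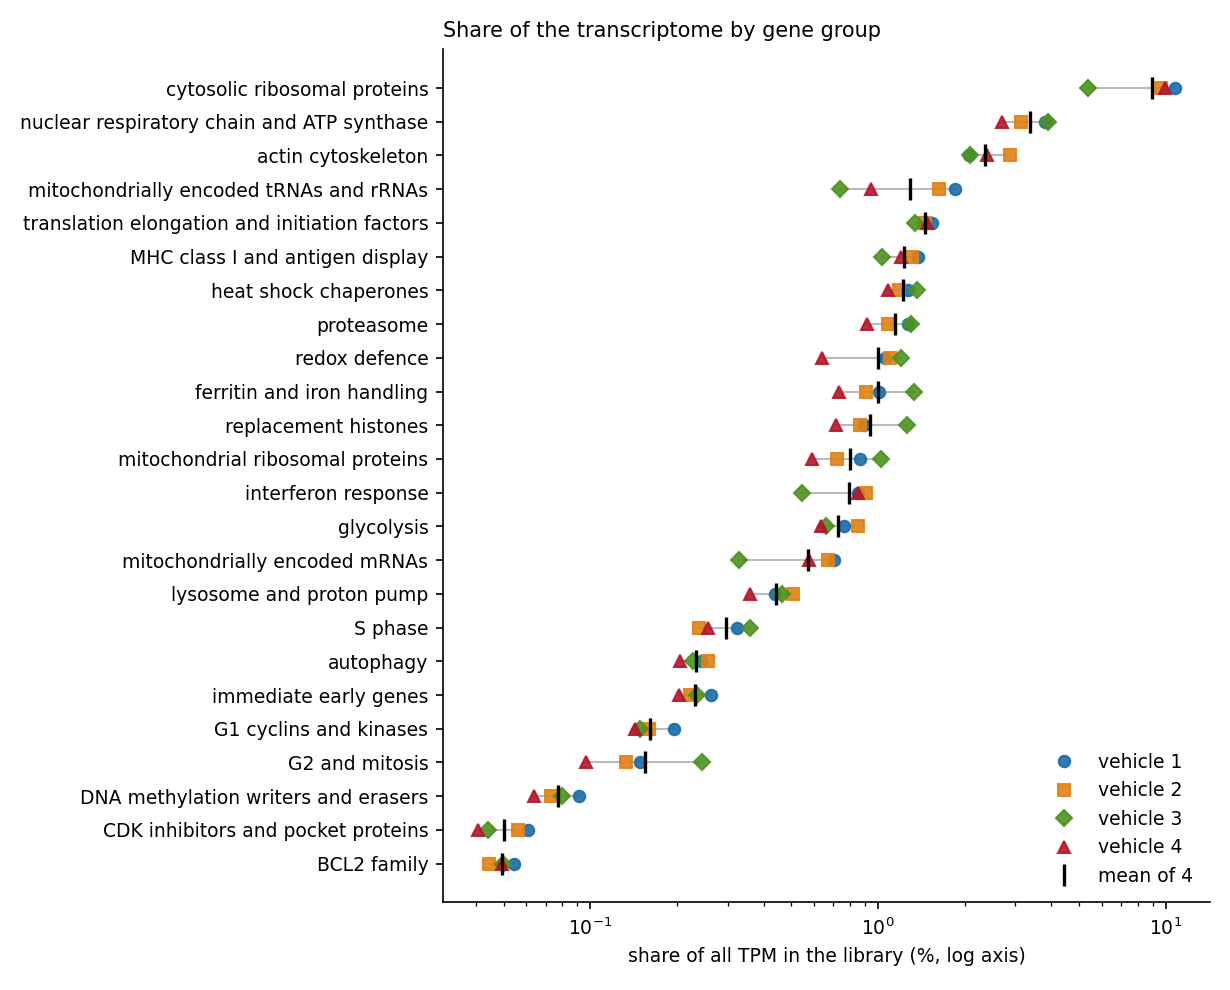
Share of all TPM (percent, log axis) of 24 functional gene groups in the 4 vehicle libraries, with points for libraries and a bar for the mean. Ribosomal proteins lead in every library and are lowest in vehicle 3 at 5.38%, and the nuclear respiratory chain is next at 2.69% to 3.90%.

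The summed share of translation factors was among the most even by TPM. The 30 elongation and initiation factors, all expressed, held 1.54%, 1.46%, 1.34% and 1.47%, a range of 1.15-fold. Of counts they held 1.47%, 1.48%, 1.2% and 1.53%. Single members were not unusually even, with a median SD of log2 of 0.412, beside 0.447 for all genes with a mean of at least 10 TPM. Eif1, which guides start codon choice, was at 3433, 2699, 3629.95 and 3929 TPM. Eef1a1, which delivers aminoacyl-tRNA, was at 2356, 3367, 1573 and 3081 TPM, lowest in vehicle 3. Of 46 proteasome genes 44 were expressed, at 1.27%, 1.08%, 1.3% and 0.914%. Psmb6, a catalytic subunit, was at 882, 677, 1156 and 566 TPM. Psmb9, which replaces it in the interferon-inducible immunoproteasome, was at 303, 268, 236 and 222 TPM, the lower of the pair in every library. Psmb5, another catalytic subunit, was at 565, 390.4, 527 and 362 TPM. Psmb8, its immunoproteasome counterpart, was at 676, 574, 807 and 579.6 TPM, the higher of that pair in every library. The 23 heat shock chaperones held 1.27%, 1.18%, 1.37% and 1.08%. Their constitutive member Hspa8 was at 2276, 2556, 2962 and 2491 TPM. Hsp90aa1, the inducible cytosolic form, was at 492, 262, 67.3 and 264 TPM. Hspa8 varied little, and Hsp90aa1 was low in vehicle 3. All 22 lysosome genes were expressed, at 0.437%, 0.505%, 0.464% and 0.36%. All 20 autophagy genes were expressed, at 0.242%, 0.256%, 0.228% and 0.205%. Map1lc3b, which marks autophagosome membranes, was at 551, 579, 617 and 394 TPM.

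All 22 glycolysis genes were expressed, at 0.761%, 0.854%, 0.658% and 0.635%. Ldha, which makes lactate, was at 2132, 2047, 1039 and 1863 TPM, lowest in vehicle 3. Pkm, pyruvate kinase, was at 821, 977, 851 and 726 TPM (SD of log2 0.18). Summed TPM of the nuclear respiratory chain list was above that of glycolysis in every library, though the lists differ in length. The 20 redox defence genes held 1.06%, 1.1%, 1.2% and 0.64%, with vehicle 4 lowest for 18 of them. Of all expressed protein-coding genes 42.4% were lowest in vehicle 4, or 23.1% with TMM scaling. Prdx6, a peroxiredoxin, was at 1733, 1591, 2075 and 974 TPM. Prdx5, another, was at 487, 779.9, 1209 and 253 TPM. Both followed the list in being lowest in vehicle 4.

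Antigen display genes were abundant in these solvent-treated animals, as were a few of the interferon response. All 14 genes of the MHC class I list were expressed and held 1.38%, 1.31%, 1.03% and 1.2%. H2-D1, a classical heavy chain, was at 3369.8, 3394, 3125 and 3258 TPM (SD of log2 0.05). H2-K1, the other, was at 3767, 3394, 2516 and 3030.4 TPM. B2m, the light chain of both, was at 3467, 3571, 2680.4 and 3031 TPM. All of them thus stayed above 2500 TPM in every library. The class Ib gene H2-Q6 was at 514, 359.7, 109 and 336 TPM and H2-Q7 at 739, 555, 231 and 515 TPM, both lowest in vehicle 3. They are near-identical copies, and the division of reads between them is uncertain. Of 25 interferon response genes 22 were expressed, at 0.852%, 0.912%, 0.546% and 0.852%, but only 5 were at 100 TPM or more in all libraries, and the median of the list was 45.8 TPM. Ifitm3, which encodes a membrane protein that restricts viruses, was at 2509.9, 2340.02, 1449.7 and 1681 TPM. Its relative Ifitm1 was at 1782, 2429, 797 and 1675 TPM and Ifitm2 at 1728, 1402, 1142 and 1139 TPM. Irf1, a transcription factor of the pathway, was at 155, 121, 61.5 and 69.1 TPM. The list as a whole was lowest in vehicle 3.

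Immediate early genes, which respond to stimuli and also to cell isolation, were present, 22 of 24 being expressed. Nr4a1, a nuclear receptor of the class, was at 519.7, 275, 457 and 243 TPM. Junb, an AP-1 subunit, was at 292, 227, 311 and 184 TPM. Fos, another, was at 116, 147, 65.6 and 107 TPM. They had no shared order, with Fos lowest in vehicle 3 and the others lowest in vehicle 4. Replacement histones, which are loaded outside replication, held 0.896%, 0.866%, 1.26% and 0.716%. H3f3b, an H3.3 gene, was at 3102, 3139, 6394 and 2127 TPM and H2afz, the H2A.Z gene, at 2181, 1829, 2826 and 1549 TPM, both highest in vehicle 3. The 65 replication-dependent histone genes held 0.194%, 0.194%, 0.152% and 0.115%. Most of their transcripts lack a poly(A) tail, and near-identical copies share reads.

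Protein-coding genes held most of the RNA, at 87.4%, 88.5%, 88.2% and 75.3% of TPM in vehicle 1 to 4, and immunoglobulin variable genes, annotated separately, 7.31% in vehicle 4. Processed pseudogenes held 3.30% ± 0.173 and long intergenic RNAs 0.908% ± 0.359 (SD, n = 4). Malat1, a nuclear RNA of speckles, led the long non-coding genes at 9028, 2341, 4861 and 3210.5 TPM, highest in vehicle 1. Gas5, a host of snoRNAs, came next at 1608, 1525, 803 and 1045 TPM. The annotated non-coding gene Gm10076 was at 1057, 828, 502 and 879 TPM. The antisense gene Gm15564 was at 594, 372, 6.49 and 677 TPM, low in vehicle 3 alone. Pseudogenes were among the 30 highest. Gm28437, on chromosome 1, was at 5239, 8542, 1103 and 4638 TPM. Gm29216, beside it, was at 4255, 5317, 2893 and 2569 TPM. Gm1821, on chromosome 14, was at 3062, 2767, 5949 and 2109.6 TPM. How far they take reads of their parent genes was not tested.

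Transcription factors of stem cells were expressed at moderate levels. Of 31 on the list 28 were at 1 TPM or more in all libraries, summing to 0.213%, 0.18%, 0.191% and 0.0975%, with 19 highest in vehicle 1 and 22 lowest in vehicle 4. Of the 9863 protein-coding genes at that level 42.7% were highest in vehicle 1 and 42.4% lowest in vehicle 4. With TMM scaling those shares were 24.1% and 23.1%, and of the 31 factors 17 were highest in vehicle 1 and 18 lowest in vehicle 4. Lmo2, the bridging protein of blood transcription complexes, was highest at 854, 665, 757 and 308 TPM. Spi1, which encodes PU.1 of the myeloid lineage, was at 113, 287, 215 and 156 TPM, with vehicle 2 highest. Cebpb, a factor of myeloid and stress responses, was at 222, 206, 237 and 74.8 TPM. Lmo2 and Cebpb shared a low value in vehicle 4. Meis1, a homeobox factor of HSCs, was at 114, 79.8, 86.5 and 47.8 TPM. Its partner Hoxa9 was at 95.4, 64.8, 97.7 and 33.4 TPM. Gata2, needed for HSC maintenance, was at 97.2, 72.01, 59.1 and 36.5 TPM. These factors were again lowest in vehicle 4. Fli1, an ETS factor, was at 46.8, 34.9, 41.6 and 48.99 TPM (SD of log2 0.21). Etv6, another ETS factor, was at 50.7, 33.8, 46.1 and 31.8 TPM. Egr1, which restrains HSC division, was at 46.1, 36.03, 30.03 and 32.2 TPM. Myb, a factor of progenitor growth, was at 41.6, 36.5, 35.9 and 29.5 TPM (SD of log2 0.20). These 4, neighbours in the order of means, had overlapping values, and Myb and Fli1 were the most even of the list. Runx1, which founds the blood lineage, was at 31.4, 22.4, 14.8 and 14.5 TPM and Tal1, a partner of Lmo2, at 24.1, 14.2, 21.8 and 8.83 TPM.  The members of the list with a mean of at least 10 TPM and an SD of 1 or more were Gfi1 (SD of log2 1.68), Mecom (1.15), Tcf15 (1.03) and Gfi1b (1.03). Tcf15, a factor of quiescent HSCs, was at 32.5, 15.3, 24.9 and 5.64 TPM. Gfi1b, also a factor of erythroid and platelet precursors, was at 28.1, 20.7, 14.2 and 4.63 TPM. Gfi1, which also acts in granulocyte precursors, was at 3.43, 18.4, 29.8 and 1.7 TPM. Gfi1 was high in vehicle 2 and vehicle 3, the libraries with 1.3% and 1.76% of early granule genes, and the part of that RNA in it was not tested. The 3 members below 1 TPM in at least 1 library were Foxo1, Hoxb4 and Cebpa. Foxo1, a factor of stress resistance, was at 5.02, 2.93, 0.96 and 6.57 TPM. Hoxb4 was at 6.23, 1.2, 2.59 and 0.96 TPM. Cebpa, the factor that opens the granulocyte and monocyte path, was at 0.58, 0.86, 0.72 and 0.21 TPM, so it was below 1 TPM in all 4.

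**Figure D3:**
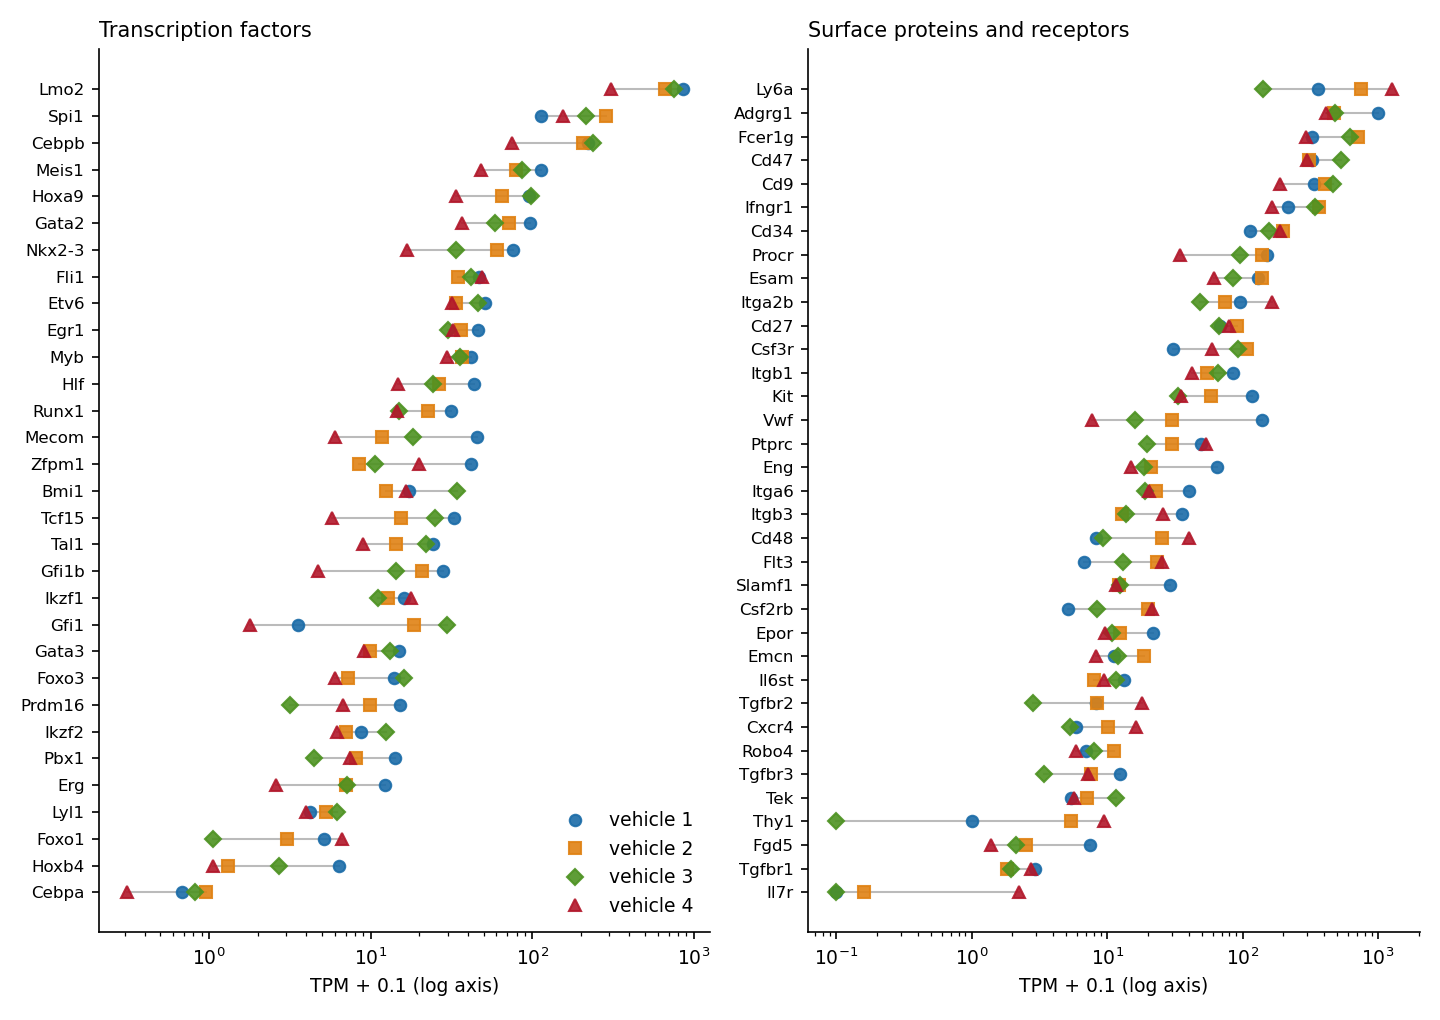
Level (TPM + 0.1, log axis) of stem cell transcription factors and of most of the listed surface proteins and receptors in the 4 vehicle libraries, ordered by mean, with 1 point per library. Vehicle 4 is lowest for 22 of 31 factors, beside 42.4% of expressed protein-coding genes, and Vwf spans 7.58 to 139 TPM.

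Of 36 surface proteins and receptors 34 were expressed, at a summed 0.433%, 0.445%, 0.367% and 0.377%. Adgrg1, an adhesion receptor of HSCs, was at 998, 470.1, 481 and 415 TPM. Cd34, low on long-term HSCs of the mouse, was at 113, 197, 158 and 188 TPM. Adgrg1 was highest in vehicle 1, where Cd34 was lowest. Cd27, a receptor of the TNF family, was at 67.7, 90.3, 66.8 and 78.8 TPM and was the most even of the list with a mean of at least 10 TPM (SD of log2 0.20). Vwf, which marks platelet-biased HSCs, was at 139, 30.01, 15.99 and 7.58 TPM. Its SD of log2 of 1.72 was the largest of the list. Flt3, a receptor of multipotent progenitors, was at 6.64, 23.2, 13.1 and 25.3 TPM. Csf3r, the G-CSF receptor, was at 30.7, 108, 92.99 and 58.97 TPM. Both were lowest in vehicle 1. Il7r, of lymphoid progenitors, was at 0, 0.06, 0 and 2.15 TPM. Tgfbr1, a TGF-beta receptor, was at 2.82, 1.71, 1.85 and 2.64 TPM.

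Genes reported as raised in aged HSCs were most abundant in vehicle 1 as well. The 29 genes held 0.21%, 0.128%, 0.0939% and 0.066%, 25 were expressed, 19 were highest in vehicle 1 and 22 lowest in vehicle 4. With TMM scaling the counts were 17 and 18 of 29, beside 24.1% and 23.1% of protein-coding genes. Clu, encoding clusterin, was at 161, 48.7, 36.01 and 17.7 TPM. Aldh1a1, a retinal dehydrogenase, was at 104, 56.5, 29.4 and 19.9 TPM. Both were highest in vehicle 1 and lowest in vehicle 4. Selp, P-selectin, was at 82.4, 70.2, 36.2 and 41.7 TPM. Nupr1, a stress-response factor, was at 207, 115, 154 and 109.5 TPM. Vwf and Slamf1, already given, are on this list as well. Of the 23 with a mean of at least 10 TPM, 10 had an SD of 1 or more, beside 7.96% of all genes with such a mean. Vehicle 1 was also the library with the least late neutrophil (2.06%) and immunoglobulin (1.08%) RNA, and the part of that RNA in the order of these genes was not tested. Of 30 imprinted genes 11 were expressed. Gnas, a G protein subunit, was highest of them at 422, 304, 418 and 476 TPM. Ndn, necdin, was at 32.6, 18.9, 19.7 and 4.92 TPM.

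The homeobox clusters were expressed in part. Of the Hoxa genes 4 of 11 were at 1 TPM or more in all libraries, namely Hoxa9, Hoxa7, Hoxa10 and Hoxa5. Hoxa7 was at 29.2, 13.8, 25.8 and 13.2 TPM. Hoxa10 was at 27.7, 14.3, 22.1 and 8.57 TPM. Hoxa5 was at 22.2, 7.19, 11.4 and 2.51 TPM. These lay below Hoxa9 in every library. Of the Hoxb genes 2 of 10 were expressed. Hoxb5, which has been used to mark long-term HSCs, was at 28.2, 11.4, 10.01 and 4.85 TPM. Hoxb2 was at 20, 13.6, 8.13 and 3.24 TPM. In the other clusters 6 of 9 Hoxc genes and 8 of 9 Hoxd genes were silent, and none was expressed. The 6 expressed Hox genes were all lowest in vehicle 4, beside 42.4% of all expressed protein-coding genes.

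G1 regulators were expressed, in cells sorted as G0/1. Ccnd3, cyclin D3, was at 374, 393, 349.6 and 343 TPM. Ccnd2, cyclin D2, was at 556, 359, 255 and 284 TPM. Ccnd1, cyclin D1, was at 22.5, 24.6, 11.1 and 8.84 TPM. Cyclin D1 was thus far below the other D cyclins in each library, and cyclin D3 was the most even (SD of log2 0.09). Their kinases are the targets of the inhibitor used elsewhere in the series. Cdk4 was at 852, 675, 720.01 and 658 TPM. Cdk6 was at 29.1, 53.7, 24.9 and 47.7 TPM. Cdk4 was the higher of these in every library. Cdkn1a, the CDK inhibitor p21, was at 285, 300.04, 160.1 and 197 TPM. Cdkn2d, the inhibitor p19 of the INK4 family, was at 150.03, 155, 177 and 144 TPM (SD of log2 0.13). Cdkn1c, encoding p57 of quiescent HSCs, was at 89.4, 40.1, 25.7 and 5.9 TPM. The gene for p57 was highest in vehicle 1 and lowest in vehicle 4. Cdkn2a, whose p16 product is associated with senescence, was at 0.14, 0, 0 and 0 TPM. Cdkn2b, its neighbour, was at 4.8, 2.5, 0.06 and 0.16 TPM, low in vehicle 3 and vehicle 4 (SD of log2 1.21). Rb1, the pocket protein that CDK4 and CDK6 phosphorylate, was at 18.6, 23.4, 18.02 and 13.2 TPM.

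All 34 S-phase genes and 25 of 29 G2 and mitosis genes were at 1 TPM or more in all libraries. The S-phase list held 0.324%, 0.239%, 0.36% and 0.257%. The G2 and mitosis list held 0.149%, 0.133%, 0.244% and 0.0965%, with vehicle 3 highest for 20 of the 29. Of all expressed protein-coding genes 33.8% were highest in vehicle 3. Pcna, the replication clamp, was at 269, 219.7, 243 and 238 TPM (SD of log2 0.12). Mcm6, of the replicative helicase, was at 191, 121, 144 and 148 TPM. Rrm2, which makes deoxynucleotides, was at 82.9, 109, 346 and 72.95 TPM. Pcna varied little, while Rrm2 was high in vehicle 3. Cdk1, the mitotic kinase, was at 139.8, 165, 243 and 123 TPM. Birc5, survivin, was at 174, 138, 284 and 110.5 TPM. Ube2c, of the anaphase-promoting complex pathway, was at 147, 199, 331 and 83.9 TPM. Transcripts of mitotic genes were thus present in cells sorted as G0/1, and most in vehicle 3. That library also had the highest early granule (1.76%), erythroid (0.417%) and eosinophil (0.112%) shares, and their part in it was not tested.

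Many genes were silent, meaning 0 TPM and 0 counts in every library. These were 26434 of 50686 genes (52.2%), and 6389 of the protein-coding genes (29.3%). A further 7265 genes were above 0 in some library and below 1 TPM in all. Silence here covers counting only to the floor of 3 counts per library given above. Olfactory receptors were the largest silent family, with 955 of 1134 genes at 0 and none expressed, which was 14.95% of all silent protein-coding genes. Of vomeronasal receptors 274 of 297 were silent, of keratins and their associated proteins 95 of 110, of defensins 62 of 64, of taste receptors 34 of 38 and of interferon alpha genes all 13. Pax factors were silent in 6 of 9 cases and none was expressed. In contrast 30 of 394 zinc finger genes were silent and 177 expressed, and of 50 proteasome genes by name none was silent.

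Few genes of other organs were expressed, and the silent share differed by list. Of all protein-coding genes 29.3% were silent and 45.2% expressed. Of 20 hepatocyte genes 15 were silent, among them Alb, Apoc3 and Apob. Trf, the iron carrier transferrin, was expressed, at 68.3, 129, 116 and 60.4 TPM. Of 20 gut and pancreas genes 13 were silent, with Cela1 the expressed exception at 31.4, 33.4, 46.2 and 19.5 TPM. Of 20 muscle genes 11 were silent and 3 expressed, with Mylpf at 22.6, 10.6, 32.8 and 6.58 TPM, and of 20 germ cell and pluripotency genes 11 were silent and none expressed. Of 20 neuron genes 5 were silent and 2 expressed. Mbp, a myelin protein with a blood cell isoform, was at 24.7, 18.5, 7.37 and 15.5 TPM. Lung epithelium genes, a list of 12 added after their values were seen, held 0.0437%, 0.0392%, 0.0331% and 0.0507%, with 3 expressed. Napsa, the aspartic protease napsin A, held most of this share at 236, 358, 269 and 498 TPM, highest in vehicle 4. Sftpc, surfactant protein C, was also expressed, at 136, 21.4, 40.7 and 4.2 TPM. Scgb1a1, of club cells, was at 41.3, 3.6, 8.75 and 0 TPM and so fell below 1 TPM in vehicle 4. Sftpc and Scgb1a1 were highest in vehicle 1, with 844 and 145 counts. Their source was not tested.

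Expressed genes were spread over all chromosomes. Protein-coding genes at 1 TPM or more in all libraries made up 36.5% of those on chromosome 14 and 52.8% on chromosome 12, the extremes among autosomes, 28.9% on X and 1 of 183 on Y. That 1, Gm47283, named after its value was seen, lies in the pseudoautosomal region (chrY:90784738-90816464) and was at 173, 73.2, 109 and 236 TPM. Xist, the RNA of the inactive X, was at 48.9, 28.2, 3.79 and 14.6 TPM. The Y-linked gene Eif2s3y was at 0, 2.93, 0.15 and 0 TPM. Uty was at 0, 1.12, 0 and 0 TPM and Kdm5d at 0, 0.74, 0 and 0 TPM. Y-linked transcripts were seen almost only in vehicle 2, and the labels give no sex.

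Spread between libraries was well above counting error. Over the 7848 genes with a mean of at least 10 TPM the median SD of log2(TPM + 1) was 0.447, where counting alone would give a median of 0.0559, and 2.65% of genes had an SD under 2 times their counting SD. edgeR's common dispersion corresponded to a biological coefficient of variation of 44.0%. By level the median SD was 0.543 for genes of 10 to 20 TPM, 0.377 for 100 to 200 TPM and 0.495 for 1000 TPM or more. Spread therefore did not shrink steadily with level. Of the 130 genes with a mean of 1000 TPM or more 25 had an SD of at least 1, compared with 6.33% at 100 to 200 TPM.

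**Figure D4:**
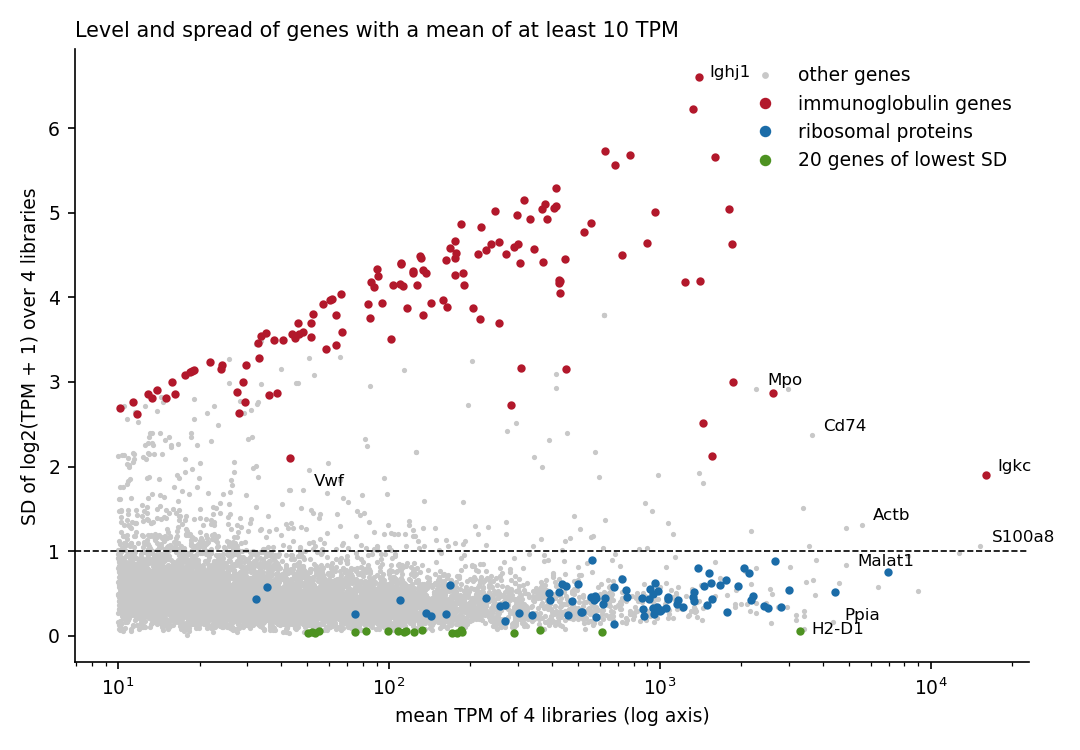
SD of log2(TPM + 1) over the 4 libraries against mean TPM (log axis) for 7848 genes with a mean of at least 10 TPM. Immunoglobulin genes (red) all lie above the dashed line at an SD of 1, ribosomal protein genes (blue) lie below it, and the 20 most stable genes (green) lie at the bottom with means from 50.2 to 3287 TPM.

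The most stable genes by TPM were mid-level housekeeping genes. Of 3204 genes with a mean of at least 50 TPM, Mrgbp had the smallest SD, with 50.6, 51.4, 49.7 and 49.1 TPM in vehicle 1 to 4 (mean 50.2 ± 1.01 TPM, SD, n = 4). Clp1 followed at 53.99, 52.5, 52.1 and 54.5 TPM. Pole4, a small subunit of DNA polymerase epsilon, was at 184, 177, 180.03 and 175 TPM. In these genes all libraries lay close together. Rhoa, a GTPase of the cytoskeleton, was at 295, 279, 286 and 295 TPM. Ywhaz, a phosphoprotein-binding adaptor, was at 597, 626, 637 and 594 TPM. Immt, of the mitochondrial inner membrane, was at 80.7, 82.99, 86.4 and 77.8 TPM. H2-D1 was the one gene above 1000 TPM among the 20 most stable.

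The choice of scaling mattered most for this result. When the counts were scaled by TMM instead, none of the 100 most stable genes by TPM was among the 100 most stable, and Mrgbp ranked 798 of 3204 with an SD of 0.22. All 20 had a larger SD under TMM, from 0.12 for Plpbp to 0.40 for Gimap6. An SD of at most 0.1 was found for 58 genes by TPM, for 133 by TMM and for 1 gene, Prmt5, by both. At an SD of at most 0.2 there were 368, 680 and 223 genes. Genes even under both scalings were looked up after the values had been seen. Prmt5, an arginine methyltransferase, was at 58.9, 53.1, 51.3 and 52.2 TPM. Cpsf6, a subunit of the mRNA cleavage factor, was at 65.2, 63.3, 58.3 and 55.8 TPM. Ndufs6, of complex I, was at 268, 252, 246 and 221 TPM. Ndufa6, also of complex I, was among them too, at 337, 302, 337 and 286 TPM. Rfc2, which loads the replication clamp, was at 478, 441, 453 and 414 TPM, and Pcna itself was in the same class.

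Genes often used to normalise other assays differed widely. Ywhaz had an SD of log2 of 0.05 by TPM and 0.20 by TMM. Gusb, a lysosomal enzyme, had 0.15 and 0.18. Ppia had 0.17 and 0.13. These genes were among the most even reference genes under both scalings. Gapdh, the glycolytic enzyme, was at 682, 906, 610.1 and 680.3 TPM and had 0.24 and 0.35. Hprt, of purine salvage, had 0.26 and 0.19. At the other end Actb had an SD of 1.32 and 1.1, and its highest library was 7.66 times its lowest. Polr2a, the largest subunit of RNA polymerase II, was at 13.1, 6.9, 2.48 and 11.8 TPM. Ipo8, a nuclear import receptor, was at 13.1, 6.9, 2.17 and 9.08 TPM. Eef2, the translocation factor of translation, was at 675, 696, 236 and 652 TPM. These 4 shared a low value in vehicle 3.

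**Figure D5:**
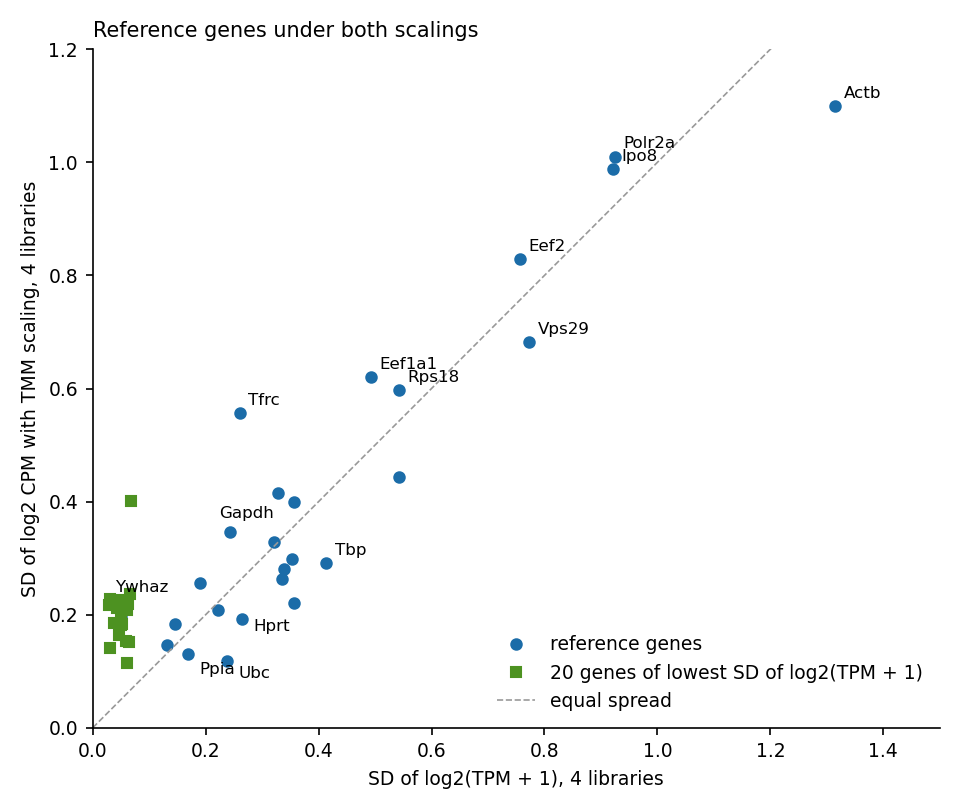
SD over the 4 libraries of log2 CPM with TMM scaling (vertical) against SD of log2(TPM + 1) (horizontal) for 26 reference genes (circles) and the 20 genes of lowest SD by TPM (squares), with a line of equal spread. Actb lies farthest out at 1.32 and 1.1, and all 20 squares lie above the line.

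Variable genes held 6.72%, 12.1%, 10.9% and 25.3% of TPM in vehicle 1 to 4, and without immunoglobulin genes 5.65%, 10.6%, 6.78% and 9.33%. Of the 7848 genes 625 (7.96%) had an SD of at least 1, 399 of them protein-coding, and 558 of the 625 also had an SD of at least 1 under TMM. Without vehicle 2 there were 818 and without vehicle 4 there were 546. Immunoglobulin genes made up 132 of the 625, which was every immunoglobulin gene at that level, and all of the 25 genes of highest SD. When each variable gene was assigned to the libraries in which it was high or low, the largest patterns were 160 genes high in vehicle 4 alone, 110 low in vehicle 3 alone, 66 low in vehicle 4 alone and 59 high in vehicles 2 and 3.

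The immunoglobulin genes differed in which variable (V) segment was used. At 10 TPM or more, vehicle 1 had 2 heavy chain V genes of 113, vehicle 2 had 7, vehicle 3 had 24 and vehicle 4 had 68. Kappa V genes at that level numbered 5, 3, 29 and 72 of 100. In vehicle 1 the gene Ighv6-3 (chr12:114391712-114392169) held 91.7% of heavy chain V TPM and Igkv8-30 (chr6:70117061-70117620) held 94.3% of kappa V TPM. In vehicle 4 the leading genes held 7.31% and 7.74%. A few V genes thus held nearly all V gene RNA of vehicle 1, and many shared it in vehicle 4. Igkv8-30 was at 2954, 1.37, 0 and 2343 TPM. The joining gene Ighj1, of 53 bases, was at 0, 0, 3101 and 2463 TPM. Of 218 V genes 85 reached 10 TPM in 1 library alone, 83 of those in vehicle 4, and 1 did in all 4. Antibody constant genes also differed. Ighm, of IgM, was at 837, 66.9, 2151 and 7428 TPM. Ighg1, of IgG1, was at 0.65, 0.47, 17.9 and 6366 TPM. V genes of a family are alike, so the level of a single V gene is uncertain.

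Of the 160 genes high in vehicle 4, 71 were immunoglobulin genes, 8 were MHC class II genes and 4 were T and NK cell markers. The 160 also held 10 of the 21 B cell markers, a list that includes antibody constant genes, so its count overlaps with the 71. Cd79a, the signalling component of the B cell receptor, was at 45.1, 12, 59.4 and 1533 TPM. Ms4a1, encoding CD20, was at 1.25, 1.3, 7.94 and 114 TPM. In both vehicle 4 stood far above the others. Ccr7, a lymphoid homing receptor, was at 4.35, 0.75, 0.49 and 197 TPM. Pax5, the B lineage factor, was at 0, 0, 0 and 5.89 TPM. The class II gene H2-Ab1 was at 376, 286, 556 and 4549 TPM. Again vehicle 4 was highest, though class II RNA was present in all libraries. The T cell gene Cd3e was at 3.12, 0, 3.57 and 35.5 TPM. Plasma cell genes, a list of 10 added after their values were seen, held 0.0953%, 0.103%, 0.177% and 0.251%. Jchain, which joins secreted antibodies, was at 73.4, 209.6, 832 and 1281 TPM, high in both vehicle 3 and vehicle 4.

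Of the 59 genes high in vehicles 2 and 3, 6 were early granule genes, which was 6 of the 7 on that list, 2 were late neutrophil genes and 3 were erythroid markers. Mpo, myeloperoxidase, was at 351, 3422, 5204 and 69.1 TPM. Ctsg, cathepsin G, was at 78.6, 1134, 317 and 27.8 TPM. Prtn3, proteinase 3, was at 457, 1788, 1316 and 191 TPM. Of the 7 early granule genes 6 had an SD of at least 1, beside 7.96% of all genes with a mean of at least 10 TPM. In vehicle 4, 6 of the 7 were lowest. Of all expressed protein-coding genes 42.4% were lowest in vehicle 4. Late neutrophil genes had another order. Ltf, lactoferrin, was at 1253, 3862, 1882 and 1257 TPM. Lcn2, which binds bacterial iron carriers, was at 1018, 3828, 1803 and 2449 TPM. Retnlg, a resistin-like protein, was at 342, 2291, 1256 and 590.4 TPM. Each was highest in vehicle 2. Mmp8, the neutrophil collagenase, was at 31.8, 130.3, 223 and 115 TPM. It was lowest in vehicle 1.

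Of the 16 eosinophil, basophil and mast cell markers 9 were highest in vehicle 3 and 4 in vehicle 4. Among all expressed protein-coding genes the shares were 33.8% and 10.1%. Prg2, the major basic protein of eosinophil granules, was at 4.62, 6.69, 769 and 33.3 TPM. Epx, eosinophil peroxidase, was at 0, 0, 42.1 and 0 TPM, with 1399 counts in vehicle 3 and none in the others. Mcpt8, a basophil protease, was at 0.15, 2.26, 25.5 and 0 TPM. Ear2, an eosinophil ribonuclease, was at 8.53, 10.2, 32.7 and 3.43 TPM, so it was present in all 4 libraries. Ccr3, the eosinophil chemokine receptor, was silent in all 4 libraries. Erythroid genes held 0.2%, 0.222%, 0.417% and 0.0958%, with vehicle 3 highest for 10 of 18, against 33.8% of all expressed protein-coding genes. Car1, a carbonic anhydrase of red cell precursors, was at 81.1, 208, 789.8 and 13.5 TPM. Klf1, the erythroid factor, was at 9.94, 13.6, 41.02 and 2.44 TPM. Hba-a2, an alpha-globin gene with a near-identical copy, was at 197, 604, 1168 and 258 TPM. Car1, Klf1 and Hba-a2 were highest in vehicle 3. Of the 18 erythroid genes 3 were lowest there, among them Slc4a1 at 5.26, 0.36, 0.07 and 0.27 TPM. Alas2 was highest in vehicle 2, at 0.26, 5.07, 1.94 and 1.31 TPM. Megakaryocyte and platelet genes held 0.338%, 0.29%, 0.345% and 0.134%, lowest in vehicle 4 for 16 of 22, or for 11 with TMM scaling. The shares of expressed protein-coding genes lowest in vehicle 4 were 42.4% and 23.1%. Pf4, platelet factor 4, was at 1308, 1139, 1618 and 214 TPM.

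Vehicle 3 was also alone in low values. Lars2, a mitochondrial leucyl-tRNA synthetase, was at 649, 406, 20.9 and 748 TPM. Txnip, an inhibitor of glucose uptake, was at 611, 602, 86.1 and 637 TPM. Kat8, a histone acetyltransferase, was at 26.9, 25.04, 0.68 and 22.5 TPM. For Txnip and Kat8 the other 3 libraries lay close together, while Lars2 also differed among them. The small mitochondrial ribosomal RNA, mt-Rnr1, was at 1288, 1392, 134 and 706 TPM. CT010467.1, annotated as a ribosomal RNA and among the 30 highest genes, was at 4760, 4326, 535 and 3903 TPM, also lowest in vehicle 3. The antisense gene Gm15564, given above, had the same order of libraries as Lars2. The part of ribosomal RNA reads in the values of Lars2 was not tested. The 110 genes low in vehicle 3 alone held no immunoglobulin gene. Deviations of vehicle 3 from the 4-library mean were related to base composition and to length. From the fifth of protein-coding genes lowest in G + C to the highest, the median deviation went from 0.33 to 0.01 in vehicle 3, from 0.15 to 0.27 in vehicle 1 and from -0.32 to -0.18 in vehicle 4 on the log2 scale. From the fifth of shortest exonic length to the longest it went from 0.19 to -0.01 in vehicle 3 and from 0.16 to 0.30 in vehicle 1. The part of base composition and length in the low ribosomal protein values of vehicle 3 was not tested.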

How the data were processed

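RNA-seq of 4 vehicle libraries of sorted mouse HSCs was described from deposited tables. Libraries were made from total RNA with a Clontech low-input kit, as the labels' protocols state. The submitters' processing notes name, without roles, RSEM 1.3.0, STAR 2.5.3a, SAMtools 1.3 and build mm10. Use of strand in counting is not given in the sources used here. From the authors come deposited log2(TPM + 1) values and RSEM expected counts (whole numbers) for 50686 genes. TPM was recovered as 2 to the deposited log2 value, minus 1. Of the genes, 50462 matched GENCODE M21, and the 224 others held at most 0.0429% of TPM. For 303 values above 0 TPM the count was 0.

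Levels, shares and SDs were computed with Python 3.11.15, numpy 2.4.6 and pandas 2.3.3. TMM scaling, with a prior count of 2, and the dispersion came from edgeR 4.0.16 and size factors from DESeq2 1.42.0, in R 4.3.3. Depth was 10146176 to 15328830 counts, and the median gene with a mean of at least 10 TPM had 665.5 counts per library. Intervals and floors cover counting error only. The scripts were tested on simulated counts. With 1 group, no test was made. Thresholds were 1 TPM for an expressed gene, a mean of 10 TPM for spread and an SD of 1 for a variable gene.

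Genes were named by level, spread, deviation of 1 library, list rank or role (sort marker, reference gene, stem cell factor, sex-linked gene). Further list members were named for their known role after their values were seen. The libraries, lists and rules were chosen with earlier results of these data known, and the plasma cell, lung epithelium and evenness-under-both-scalings selections after the values were seen. Near-identical copies share reads, so levels of immunoglobulin, globin, histone and pseudogene entries are uncertain. Values of some list members are not reported here. Promoters came from RefSeq, build GRCm38.p6.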

Additional observations from a re-analysis of the deposited data

Results flagged for a closer look

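Some values were singled out because 1 library lay far from the other 3, with a gap to its nearest neighbour, relative to the whole range, above the Dixon limit for 4 values (on the log2 scale for genes). Chance singles out about 1 group of 4 in 20, and over all 7848 genes with a mean of at least 10 TPM the share was 5.76%. Of those 452 genes the library apart was vehicle 3 in 190, vehicle 4 in 146, vehicle 1 in 84 and vehicle 2 in 32. Of 179 genes and 30 lists examined for the text, 17 genes and 3 lists exceeded the limit. Some of the 179 were named for spread or the deviation of 1 library, so their count is not comparable with 5.76%. Epx, Pax5, Cdkn2a, Uty and Kdm5d were without TPM in the other libraries, which puts them past the limit by construction. The limit was used for selection and not as a test. The source of these gaps was not tested.

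Vehicle 3 was apart in 2 gene lists, with the lowest share of interferon response genes at 0.546% of TPM and the highest share of eosinophil, basophil and mast cell markers at 0.112%. It was the lowest library for Eef2 at 236 TPM, for Gm15564 at 6.49 TPM, for Kat8 at 0.68 TPM and for Txnip at 86.1 TPM. It was also lowest for the ribosomal protein gene Rps18 at 1643 TPM, and it was highest for Epx at 42.1 TPM.

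Vehicle 4 was apart with the highest share of MHC class II genes at 2.46% of TPM. It was highest for the B lineage gene Pax5 at 5.89 TPM, for Cd74 at 13017 TPM and for Il7r at 2.15 TPM. It was the lowest library for Cebpb at 74.8 TPM.

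Vehicle 1 was apart with the highest level of Slamf1 at 28.9 TPM, of Adgrg1 at 998 TPM and of Cdkn2a at 0.14 TPM, the last being close to 0 in any case. It was also the lowest library for Fth1, at 3121 TPM, although that gene varied little. Among the 179 genes and 30 lists examined for the text, vehicle 2 was apart only in the Y-linked genes, with Eif2s3y at 2.93 TPM, Uty at 1.12 TPM and Kdm5d at 0.74 TPM.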

How the results depend on the processing

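The results are counts, shares and SDs, which have no sign, so none could reverse. None of the headline counts moved by 1.5 times or more. The share of the 100 most abundant genes moved in 1 setting, as percent of counts, and the median SD in 1, with no filter. Genes at 1 TPM in all libraries numbered 10864, or 7785 at 5 TPM and 11730 at 0.5 TPM. Silent genes numbered 26434, or 27773 when levels below 0.1 TPM were counted. The share of the 100 most abundant genes was 28.7% of TPM and 21.7% of counts. The median SD of 0.447 became 0.408 with TMM scaling and 0 with no filter on low values, since most genes are silent. Leaving out 1 library gave 11096 to 11528 expressed and 27065 to 28083 silent genes, a top-100 share of 27.5% to 30.1%, a median SD of 0.370 to 0.476 and 546 to 818 variable genes. Variable genes numbered 673 with TMM scaling, 683 with DESeq2 size factors, 721 with a pseudocount of 0.1 and 493 without immunoglobulin genes. The SDs of all 20 most stable genes moved with TMM scaling, and of 1 of the 25 most variable, and leaving out 1 library moved those of 15 and 11. Shares of 29 of 62 gene lists moved as percent of counts, which are not corrected for length. No paired analysis was possible because only 1 group was described. With 4 libraries SDs of single genes are imprecise, and levels below about 0.3 CPM are at the counting floor.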
